A study of Mus musculus with 72 samples.

Results

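The naive pluripotency factors described here are 10 genes, Zfp42, Esrrb, Nanog, Klf2, Klf4, Klf5, Tfcp2l1, Tbx3, Prdm14 and Dppa3, among 45321 genes counted in the series. They were chosen by name as genes of the naive pluripotent state, by a rule that uses no measured value, although earlier results of these data were known. Each was represented by its Ensembl transcript with the highest total count. The study profiled poly(A) RNA of mouse embryonic stem cell lines that have or lack Nup133, a subunit of the Y-complex of the nuclear pore, before and during differentiation toward neuroectoderm. The control series were HM1 replicates 1 and 2 (Nup133+/+, 40 chromosomes, XY) and line 1A4 (Nup133+/+, Sox1gfp/+, 40 chromosomes, XY). The knockout series were lines 14 and 19, CRISPR/Cas9 derivatives of HM1 (Nup133-/-, 40 chromosomes, XY, given as likely for line 19), and line 319. Line 319 is Nup133merm/merm and Sox1gfp/+ with 42 chromosomes, XX, and extra copies of chromosomes 8 and 12, and like line 1A4 it was derived from a blastocyst. At day 0 the cells came from serum and LIF on inactivated DR4 mouse embryonic fibroblasts, which were removed by a short plating step. At day 2 they were in N2B27, a serum-free medium, with LIF withdrawn, and at day 3 they had also received 1 µM all-trans retinoic acid for 24 h, so time and retinoic acid cannot be told apart between day 2 and day 3. Every group of genotype and day held 3 samples, each knockout sample is 1 line, and the knockout series differ from each other in line as well as in culture. The labels call the HM1 replicates biological and do not say what separated them, so p-values measure the spread between these samples.

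Naive pluripotency is the state of the preimplantation epiblast. It is held in mouse embryonic stem cells by a mutually activating network of transcription factors downstream of LIF and STAT3, Wnt and BMP signalling. When LIF is withdrawn the network is dismantled, and cells pass through a formative state before they answer to lineage signals such as retinoic acid. The genes of the network are therefore used as a clock of exit from naive pluripotency, with Zfp42 (Rex1) as its most used reporter.

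The libraries held from 16466724 (line 19, day 2) to 54386795 (line 14, day 3) gene counts per sample. Members held 599 to 31196 counts per control sample at day 0 and 10 to 2755 per knockout sample at day 3, so the members with the lowest counts are measured least precisely. The targeted transcript lay between 179.6 and 323 CPM (read counts scaled to library size with TMM factors) in the 9 control samples and between 14.3 and 37.1 CPM in the 9 knockout samples. The 7 general pluripotency factors, used as markers of embryonic stem cells, summed to 2672 to 2849 CPM in day 0 controls and 3374 to 3506 CPM in day 0 knockout lines. Fibroblast markers, which feeder cells would also express, summed to 118 to 228 CPM in the controls and 89.8 to 151 CPM in the knockout lines at day 0, and none of the 9 was at 0 counts in any day 0 sample. At day 2 the sums were apart, 107 to 161 CPM in controls and 56.8 to 98.8 CPM in knockout lines, and at day 3 they were 206 to 294 and 148 to 233 CPM. Among these markers Acta2 and Postn were called lower in knockout lines at day 2 (log2 -3.16 ± 0.48 SE, adjusted p = 0.00543 and log2 -5.21 ± 0.76 (SE), adjusted p = 0.00398) and at day 3 (log2 -3.45 ± 0.48 SE, adjusted p = 0.00171 and log2 -3.38 ± 0.57 (SE), adjusted p = 0.00539). The part of these shifts in the member levels was not tested. In bulk samples fewer cells of a type and less RNA per cell cannot be told apart, and this holds for every level below.

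All 10 factors fell between day 0 and day 2 in both genotypes, and most of the loss seen by day 3 had already happened before retinoic acid was added. From day 0 to day 2 the edgeR quasi-likelihood test called 10 of 10 members lower in controls and 10 of 10 in knockout lines at a Benjamini-Hochberg adjusted p below 0.05. Over all 18273 genes tested, 15.5% were called lower in controls and 15.1% in knockout lines. From day 0 to day 3 the counts were again 10 of 10 and 10 of 10, where 23.3% and 22.2% of all genes were called lower. The median log2 change of the members from day 0 to day 2 was -3.30 in controls and -3.99 in knockout lines, against 0.01 and 0.06 over all genes. From day 0 to day 3 it was -3.66 in controls and -4.42 in knockout lines, against 0.04 and 0.01.

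**Figure D1:**
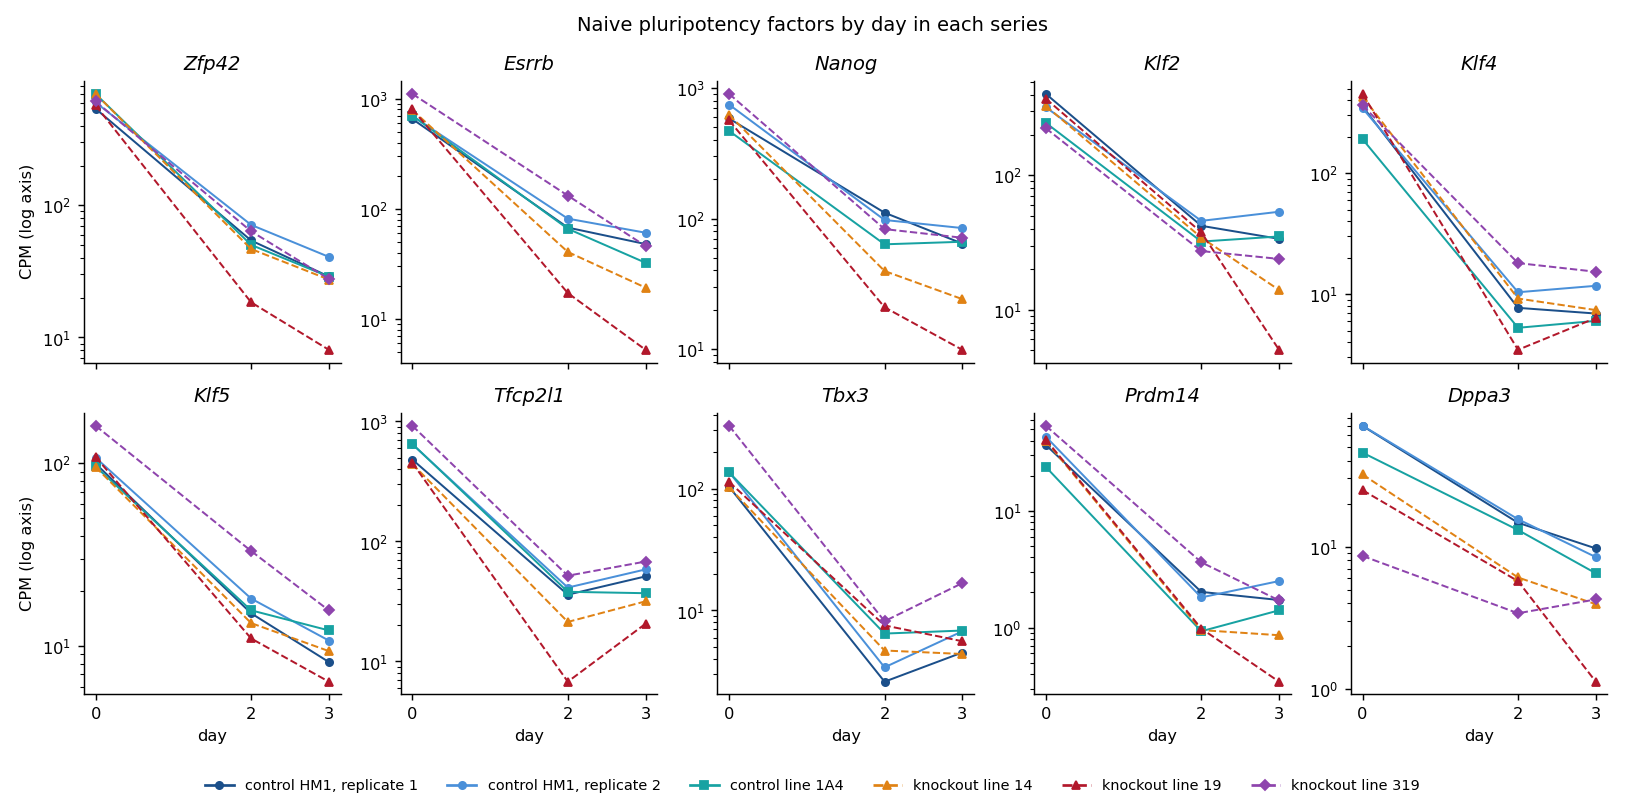
Level of each of the 10 factors in CPM (log axis, scaled per panel) against day, 1 line per series, solid for controls and dashed for knockout lines. On the log axis the drop between day 0 and day 2 exceeds the step to day 3 in every line drawn except line 19 in the Dppa3 panel, and line 19 (red triangles) has the lowest day 3 value in 8 of 10 panels.

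Levels are listed for controls in the order HM1 replicate 1, HM1 replicate 2, line 1A4, and for knockout lines in the order 14, 19, 319. Genotypes that do not overlap are common in these data and are no result about a member on their own. In CPM 17.8% of all genes tested did not overlap at day 0, 21.7% at day 2 and 35.2% at day 3. As a share of the day 0 level, 12.3% of the 17469 genes with counts in every day 0 sample did not overlap at day 2 and 22.5% at day 3, and of the members 2 of 10 and 3 of 10 did not.

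Nanog, a homeodomain factor that sustains self-renewal when LIF is limiting, left a smaller share of its day 0 level in every knockout line than in every control (transcript ENSMUST00000012540, chr6:122707568-122714633 on mm10, plus strand, 4 exons, 2211 bases). Its proximal promoter is shown because this region is a classic example of joint regulation by Pou5f1 (Oct4) and Sox2. The sequence is the 250 bases before the RefSeq start site, chr6:122707239-122707488, GRCm38.p6, plus strand, 5′ to 3′. Capitals mark an octamer core (TTTGCAT), a Sox-type element (ACAATG) and a Klf-type element (GGGNGTGG).
Nanog: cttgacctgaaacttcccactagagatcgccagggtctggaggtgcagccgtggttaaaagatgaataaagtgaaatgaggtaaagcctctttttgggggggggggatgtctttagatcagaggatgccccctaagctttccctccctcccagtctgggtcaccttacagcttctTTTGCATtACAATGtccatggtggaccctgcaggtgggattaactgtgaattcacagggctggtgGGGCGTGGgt
The octamer core began at position -75 from the start site and the Sox-type element at -67, so that 1 base separated them, and the Klf-type element began at -10.

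Nanog stood at 586, 749.6 and 471 CPM in day 0 controls and at 627, 568 and 906 CPM in day 0 knockout lines. At day 2 it stood at 111, 97.6 and 63.5 CPM in controls and 39.6, 20.9 and 83.1 CPM in knockout lines, and at day 3 at 64.3, 84.6 and 66.4 CPM and 24.1, 9.85 and 71.3 CPM. At day 0 lines 14 and 19 lay within the range of the controls and line 319 above it. At days 2 and 3 lines 14 and 19 were below every control and line 319 within their range, so the genotypes overlapped at all 3 days. As a share of each series' own day 0 level, 18.9, 13.02 and 13.5% was left at day 2 in controls and 6.32, 3.68 and 9.17% in knockout lines. On this scale the 3 knockout lines were below the 3 controls, and the same held at day 3 (10.98, 11.3 and 14.1% against 3.85, 1.74 and 7.87%). The fall from day 0 to day 3 was 8.54-fold in controls (log2 -3.09 ± 0.53 SE, adjusted p = 0.000195) and 21.9-fold in knockout lines (log2 -4.45 ± 0.57 SE, adjusted p = 1.17e-05). The difference between these falls was log2 -1.36 ± 0.703 (SE), adjusted p = 0.517, with a 95% interval from -2.85 to 0.14, and did not pass the threshold.

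Esrrb, an orphan nuclear receptor that can stand in for Nanog in reprogramming, was the member with the largest fitted genotype difference in its fall to day 3 (transcript ENSMUST00000110204, chr12:86421644-86521625 on mm10, plus strand, 7 exons, 4196 bases). Day 0 levels were 655, 695 and 703 CPM in controls and 789, 806 and 1106 CPM in knockout lines, with every knockout line above every control. Line 319, which carries an extra chromosome 12, where Esrrb lies, was the highest. Line 319 was above line 1A4 at day 0 in 7 of 10 members and below it in 3. The log2 difference was 0.65 in Esrrb, 1.27 in Tbx3 (chromosome 5) and 1.16 in Prdm14 (chromosome 1). The part of the extra chromosome in the Esrrb level was not tested. At day 2 the levels were 67.6, 81.5 and 65.9 CPM in controls and 40.6, 17.2 and 132 CPM in knockout lines, a range that ran from far below to far above the controls. At day 3 they were 47.9, 60.7 and 32.4 CPM and 19.3, 5.25 and 45.9 CPM. Per series, 7.31, 8.73 and 4.61% of the day 0 level was left at day 3 in controls and 2.44, 0.652 and 4.15% in knockout lines, and the groups did not overlap. The value of line 19, 0.652%, was the lowest share left by any member in any series at day 3. Esrrb fell 13.9-fold from day 0 to day 3 in controls (log2 -3.79 ± 0.61 SE, adjusted p = 0.000113) and 43.01-fold in knockout lines (log2 -5.43 ± 0.67 SE, adjusted p = 7.62e-06). The difference was log2 -1.63 ± 0.79 (SE), adjusted p = 0.474, with a 95% interval from -3.31 to 0.05.

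Zfp42, a zinc finger protein dispensable for self-renewal but the standard reporter of the naive state, stood at similar day 0 levels in the 2 genotypes (transcript ENSMUST00000082120, chr8:43295067-43306980 on mm10, minus strand, 4 exons, 1772 bases). Its promoter window is shown for comparison with that of Nanog, as the other member window with an octamer core. The 250 bases lie at chr8:43307010-43307259, GRCm38.p6, minus strand, printed 5′ to 3′ along the gene, with the octamer core (TTTGCAT, from -185) and a Klf-type element (the reverse complement of GGGNGTGG, from -75) in capitals.
Zfp42: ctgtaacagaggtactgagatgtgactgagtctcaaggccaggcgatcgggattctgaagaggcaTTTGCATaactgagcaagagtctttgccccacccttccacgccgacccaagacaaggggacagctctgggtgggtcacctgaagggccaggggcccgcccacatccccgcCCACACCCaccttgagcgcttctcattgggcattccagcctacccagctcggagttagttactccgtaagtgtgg
Zfp42 lies on chromosome 8, which line 319 carries in extra copy, and its day 0 level there lay within the range of the controls. The part of the extra chromosome in the Zfp42 level was not tested.

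Day 0 levels of Zfp42 were 539.8, 604 and 698 CPM in controls and 699.6, 573 and 613 CPM in knockout lines. Day 2 levels were 54.3, 71.2 and 50.3 CPM in controls and 46.8, 18.5 and 63.7 CPM in knockout lines, and only line 19 lay clearly outside the range of the rest. By day 3 the controls held 28.96, 40.8 and 28.9 CPM and the knockout lines 27.5, 8.07 and 27.7 CPM, with all 3 knockout lines below the lowest control, lines 14 and 319 by little. The difference at day 3 was log2 -0.67 ± 0.397 (SE), adjusted p = 0.353 and did not pass the threshold. From day 0 to day 2 Zfp42 fell 10.3-fold in controls (log2 -3.37 ± 0.43 SE, adjusted p = 3.38e-05) and 14.9-fold in knockout lines (log2 -3.900 ± 0.44 SE, adjusted p = 1.1e-05). From day 2 to day 3 the fitted step was log2 -0.84 ± 0.395 (SE), adjusted p = 0.151 in controls and log2 -1.02 ± 0.398 (SE), adjusted p = 0.0602 in knockout lines. With the 6 series as a block, the knockout step passed the threshold (log2 -1.04, adjusted p = 0.0166).

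The Krüppel-like factors are zinc finger proteins that bind GC-rich CACCC-like elements and overlap in function in naive cells. Klf4 was shut off deeply by day 2 and Klf5 kept a larger share. Klf2 was the member called between genotypes at day 3, a call that several alternatives lost. Klf2 is a protein that Mek and Erk signalling destabilises, Klf4 is a direct target of STAT3, and Klf5 is also needed in the early trophectoderm and epiblast.

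Klf2 (transcript ENSMUST00000067912, chr8:72319033-72321656 on mm10, plus strand, 3 exons, 1847 bases) stood at 405, 322 and 246 CPM in day 0 controls and 329, 372 and 224 CPM in day 0 knockout lines. Line 319, which has an extra chromosome 8, where Klf2 lies, was the lowest at day 0, and line 1A4 was the next lowest. Line 319 differed from line 1A4 by log2 -0.134. The part of the extra chromosome in the Klf2 level was not tested. At day 2 Klf2 stood at 42.1, 45.8 and 32.1 CPM and 34.4, 37.6 and 27.3 CPM, and the groups overlapped. At day 3 the controls held 33.6, 53.5 and 35.04 CPM and the knockout lines 13.98, 5.01 and 23.8 CPM, so that all 3 knockout lines were below all 3 controls, line 19 the furthest. Klf2 fell 8.1-fold by day 2 in controls (log2 -3.02 ± 0.41 SE, adjusted p = 5.54e-05) and 9.299-fold in knockout lines (log2 -3.22 ± 0.41 SE, adjusted p = 3.34e-05). From day 2 to day 3 the controls gave log2 0.03 ± 0.38 (SE), adjusted p = 0.967, whereas Klf2 fell 2.25-fold in the knockout lines (log2 -1.17 ± 0.39 SE, adjusted p = 0.0327). The difference between these steps, log2 -1.197 ± 0.55 (SE), adjusted p = 0.557, did not pass the threshold over all genes. At day 3 Klf2 was 2.77-fold lower in knockout lines (log2 -1.47 ± 0.39 SE, adjusted p = 0.043), lower in 3 of 3 lines, and over the 13 alternatives the adjusted p ranged from 0.00337 to 0.258. That call was lost without control replicate 1 (HM1), 2 (HM1) or 3 (line 1A4), with adjusted p of 0.14, 0.258 and 0.101, and without knockout replicate 1 (line 14), with 0.173. It was also lost with no low-count filter (adjusted p = 0.116) and with all transcripts of a gene added up (adjusted p = 0.0506). The call of the step from day 2 to day 3 in knockout lines was lost without control replicates 1 or 2 (HM1), line 14 or line 19, at adjusted p of 0.063, 0.0585, 0.16 and 0.0962, and with no low-count filter, at 0.1.

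Klf4 (transcript ENSMUST00000107619, chr4:55527143-55532466 on mm10, minus strand, 5 exons, 3029 bases) is shown with its promoter window because it was the most deeply shut off member in controls. The 250 bases lie at chr4:55532476-55532725, GRCm38.p6, minus strand, printed along the gene, and capitals mark a TATA-type element (TATAA on both strands, overlapping as TTATAA, from -32).
Klf4: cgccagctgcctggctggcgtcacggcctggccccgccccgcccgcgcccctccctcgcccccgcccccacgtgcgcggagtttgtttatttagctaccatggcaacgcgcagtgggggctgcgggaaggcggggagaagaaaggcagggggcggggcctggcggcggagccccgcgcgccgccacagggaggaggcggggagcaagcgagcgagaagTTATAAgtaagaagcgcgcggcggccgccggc
The window held no octamer core, Sox-type or Klf-type match.

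Levels of Klf4 at day 0 were 356, 344 and 191 CPM in controls and 429, 452 and 363 CPM in knockout lines, and the groups did not overlap because every knockout line was above HM1 replicate 1. Line 1A4 was the lowest. At day 2 only 7.71, 10.4 and 5.27 CPM were left in controls and 9.201, 3.47 and 18.1 CPM in knockout lines, with line 19 the lowest and line 319 the highest of the 6 series. Day 3 gave 6.92, 11.7 and 6.01 CPM and 7.39, 6.35 and 15.3 CPM, close to day 2 in most series. The fall to day 2 was 38.2-fold in controls (log2 -5.26 ± 0.54 SE, adjusted p = 6.3e-06) and 40.5-fold in knockout lines (log2 -5.34 ± 0.55 SE, adjusted p = 4.5e-06). The genotype difference in this fall was log2 -0.08 ± 0.65 (SE), adjusted p = 0.983, with an interval from -1.47 to 1.301, which does not show that the genotypes acted alike.

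Klf5 (transcript ENSMUST00000005279, chr14:99298691-99315036 on mm10, plus strand, 4 exons, 3352 bases) held 99.7, 107 and 96.2 CPM in day 0 controls and 95.5, 108 and 161 CPM in day 0 knockout lines. At day 2 the levels were 15.1, 18.2 and 15.7 CPM and 13.4, 11.01 and 33.2 CPM, and at day 3 they were 8.18, 10.7 and 12.2 CPM and 9.39, 6.39 and 15.7 CPM. Line 319 was above the other 5 series at all 3 days, and the genotypes overlapped throughout. Klf5 left 15.2, 16.9 and 16.3% of day 0 at day 2 in controls and 14, 10.1 and 20.6% in knockout lines. It fell again from day 2 to day 3 in knockout lines (log2 -0.83 ± 0.28 SE, adjusted p = 0.0335), and the same step in controls was log2 -0.696 ± 0.28 (SE), adjusted p = 0.0913. With the series as a block the control step also passed the threshold (log2 -0.66, adjusted p = 0.0293). In the knockout lines the call was lost without control replicate 1 or 2 (HM1) or knockout replicate 1 (line 14), at adjusted p of 0.072, 0.0503 and 0.0772. Dropping the background term also ended it (adjusted p = 0.0762), as did a fit of only HM1 and its derivatives (adjusted p = 0.0513).

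Tfcp2l1 and Tbx3 are factors through which LIF signalling reaches the network: Tfcp2l1, a grainyhead-like factor, is a STAT3 target that is enough to maintain self-renewal, and Tbx3 is a T-box factor tied to phosphoinositide 3-kinase signalling. Day 3 was above day 2 in 5 of 6 series for Tfcp2l1 and in 4 of 6 for Tbx3. The promoter window of Tfcp2l1 is shown as the member window with the most Klf-type matches. It lies at chr1:118627695-118627944, GRCm38.p6, plus strand, with 2 Klf-type elements (reverse complements, from -61 and -47) and a TATA-type element (TATAA, from -28) in capitals.
Tfcp2l1: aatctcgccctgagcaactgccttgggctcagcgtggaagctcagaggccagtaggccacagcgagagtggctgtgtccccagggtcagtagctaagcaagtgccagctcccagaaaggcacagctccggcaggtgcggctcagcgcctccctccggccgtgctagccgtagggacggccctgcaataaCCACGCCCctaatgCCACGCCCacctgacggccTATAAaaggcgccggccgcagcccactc

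Tfcp2l1 (transcript ENSMUST00000027629, chr1:118627946-118685168 on mm10, plus strand, 15 exons, 9269 bases) stood at 482, 646 and 651 CPM in day 0 controls and 443, 453 and 922 CPM in day 0 knockout lines. At day 2 it stood at 36.04, 41.3 and 38.1 CPM in controls and 21.4, 6.79 and 51.9 CPM in knockout lines, with lines 14 and 19 below and line 319 above all controls. At day 3 it stood at 51.2, 58.5 and 37.1 CPM and 31.7, 20.6 and 68.1 CPM, higher than at day 2 in 5 of the 6 series. Relative to day 0, 7.48, 6.39 and 5.85% was left at day 2 in controls and 4.83, 1.497 and 5.63% in knockout lines, and all 3 knockout lines were below all 3 controls. Tfcp2l1 fell 15.2-fold by day 2 in controls (log2 -3.92 ± 0.49 SE, adjusted p = 2.84e-05) and 24.1-fold in knockout lines (log2 -4.59 ± 0.51 SE, adjusted p = 8.75e-06). The step from day 2 to day 3 was log2 0.396 ± 0.44 (SE), adjusted p = 0.572 in controls and log2 0.64 ± 0.44 (SE), adjusted p = 0.279 in knockout lines. An snRNA gene, Gm23497, overlaps an exon of Tfcp2l1 on the same strand, so reads there could count for either.

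Tbx3 (transcript ENSMUST00000018748, chr5:119671018-119684724 on mm10, plus strand, 8 exons, 4856 bases) stood at 104, 137 and 136 CPM in day 0 controls and 102, 113 and 327 CPM in day 0 knockout lines, where line 319 was far above the other 5 series. At day 2 the levels were 2.61, 3.42 and 6.47 CPM and 4.695, 7.54 and 8.17 CPM, and at day 3 they were 4.52, 6.75 and 6.85 CPM and 4.397, 5.596 and 16.8 CPM. Together with Dppa3 it was 1 of 2 members whose fitted fall to day 2 was smaller in knockout lines, 24.01-fold (log2 -4.59 ± 0.37 SE, adjusted p = 6.91e-07), than in controls, 33.02-fold (log2 -5.05 ± 0.38 SE, adjusted p = 6.45e-07), by a difference of log2 0.46 ± 0.46 (SE), adjusted p = 0.836 that did not pass the threshold. Against the controls of its own background the change of Tbx3 to day 2 differed by log2 0.79 in line 14, 1.27 in line 19 and -0.95 in line 319. The smaller fall was thus that of lines 14 and 19, and line 319 had the opposite sign. By day 3 the share left lay in a narrow range, 4.37, 4.94 and 5.04% in controls and 4.29, 4.94 and 5.12% in knockout lines. The antisense gene Tbx3os1 overlaps Tbx3 exons on the opposite strand, and whether the counting used strand is not given in the sources used here, so its reads may be part of these levels.

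Prdm14 and Dppa3 link the naive state to the germ line. Prdm14 is a PR-domain protein that represses Dnmt3 genes and is needed for primordial germ cells, and Dppa3 (Stella) is a maternal factor that protects methylation in the zygote and restrains Uhrf1.

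Prdm14 (transcript ENSMUST00000047577, chr1:13113457-13127163 on mm10, minus strand, 8 exons, 2564 bases) stood at 36.9, 43.4 and 23.9 CPM in day 0 controls and 40.1, 41 and 53.9 CPM in day 0 knockout lines. At day 2 it stood at 2.02, 1.81 and 0.929 CPM and 0.9505, 0.9802 and 3.63 CPM, and at day 3 at 1.72, 2.505 and 1.41 CPM and 0.8595, 0.343 and 1.71 CPM. The lowest of these, line 19 at day 3, rests on 10 counts. At day 3 4.67, 5.77 and 5.88% of day 0 was left in controls and 2.14, 0.837 and 3.17% in knockout lines, and the groups did not overlap. Prdm14 fell 18.7-fold from day 0 to day 3 in controls (log2 -4.23 ± 0.53 SE, adjusted p = 1.15e-05) and 46.4-fold in knockout lines (log2 -5.54 ± 0.57 SE, adjusted p = 1.39e-06), the largest fitted fall of any member in the knockout lines. The difference was log2 -1.31 ± 0.697 (SE), adjusted p = 0.536, with an interval from -2.79 to 0.17.

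Dppa3 (transcript ENSMUST00000049644, chr6:122626410-122630272 on mm10, plus strand, 4 exons, 833 bases) was the member whose genotypes did not overlap at any of the 3 days. Its levels were 70.03, 70.3 and 45.5 CPM in day 0 controls and 32.02, 24.9 and 8.61 CPM in day 0 knockout lines, 14.7, 15.6 and 13.1 CPM and 6.08, 5.73 and 3.41 CPM at day 2, and 9.72, 8.45 and 6.51 CPM and 3.95, 1.13 and 4.27 CPM at day 3. All 3 knockout lines were below all 3 controls at each day. The differences were log2 -1.57 ± 0.399 (SE), adjusted p = 0.0937 at day 0, log2 -1.54 ± 0.41 (SE), adjusted p = 0.0692 at day 2 and log2 -1.302 ± 0.41 (SE), adjusted p = 0.0772 at day 3. None passed the edgeR threshold over all genes, whereas DESeq2 called all 3 (adjusted p = 0.00787, 0.00709 and 0.0204). Over all 13 alternatives the adjusted p ranged from 0.00787 to 0.502 at day 0, 0.00709 to 0.326 at day 2 and 0.0101 to 0.275 at day 3. Dppa3 fell by day 2 in both genotypes, 4.204-fold in controls (log2 -2.07 ± 0.405 SE, adjusted p = 0.00107) and 4.14-fold in knockout lines (log2 -2.05 ± 0.42 SE, adjusted p = 0.00141), with a difference of log2 0.02 ± 0.57 (SE), adjusted p = 0.995. Line 319 started lowest and ended with 49.6% of its day 0 level, on 422 counts at day 0 and 165 at day 3. Germ cell markers summed to 116 to 178 CPM in day 0 controls and 79.0 to 149 CPM in day 0 knockout lines, lowest in line 319, and none of the 5 was at 0 counts. Two-cell-like markers summed to 1.85 to 5.74 CPM in day 0 controls and 4.29 to 7.83 CPM in day 0 knockout lines. The part of either in the level of Dppa3 was not tested.

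The depth of shut-off reached by day 2 varied widely from gene to gene. No time between day 0 and day 2 was sampled, so the shares left show depth and not the rate of the fall. Klf4, Tbx3 and Prdm14 left 2.65% ± 0.438, 3.26% ± 1.30 and 4.52% ± 0.849 of the day 0 level at day 2 in controls (mean ± SD, n = 3), whereas Nanog, Klf5 and Dppa3 left 15.1% ± 3.29, 16.1% ± 0.9004 and 23.9% ± 4.17. Tfcp2l1, Zfp42, Esrrb and Klf2 lay between, at 6.58% ± 0.830, 9.69% ± 2.32, 10.5% ± 1.18 and 12.55% ± 1.96. In the knockout lines Klf4 left 2.63% ± 2.15 and Dppa3 27.2% ± 10.96, which were again the 2 ends of the order. By day 3 Klf4 left 2.83% ± 0.783 in controls, Klf2 13.1% ± 4.28 and Dppa3 13.4% ± 1.21. Of the whole fall from day 0 to day 3, from 80.6% to 119.7% was made by day 2 over the 60 pairs of member and series, where more than the whole fall means that day 3 was above day 2. Day 3 was below day 2 in 42 of the 60 pairs. Dppa3 and Klf5 made the smallest part by day 2, with medians of 90.1% and 93.9% over the 6 series, and Tfcp2l1 the largest, with 102.7%.

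**Figure D2:**
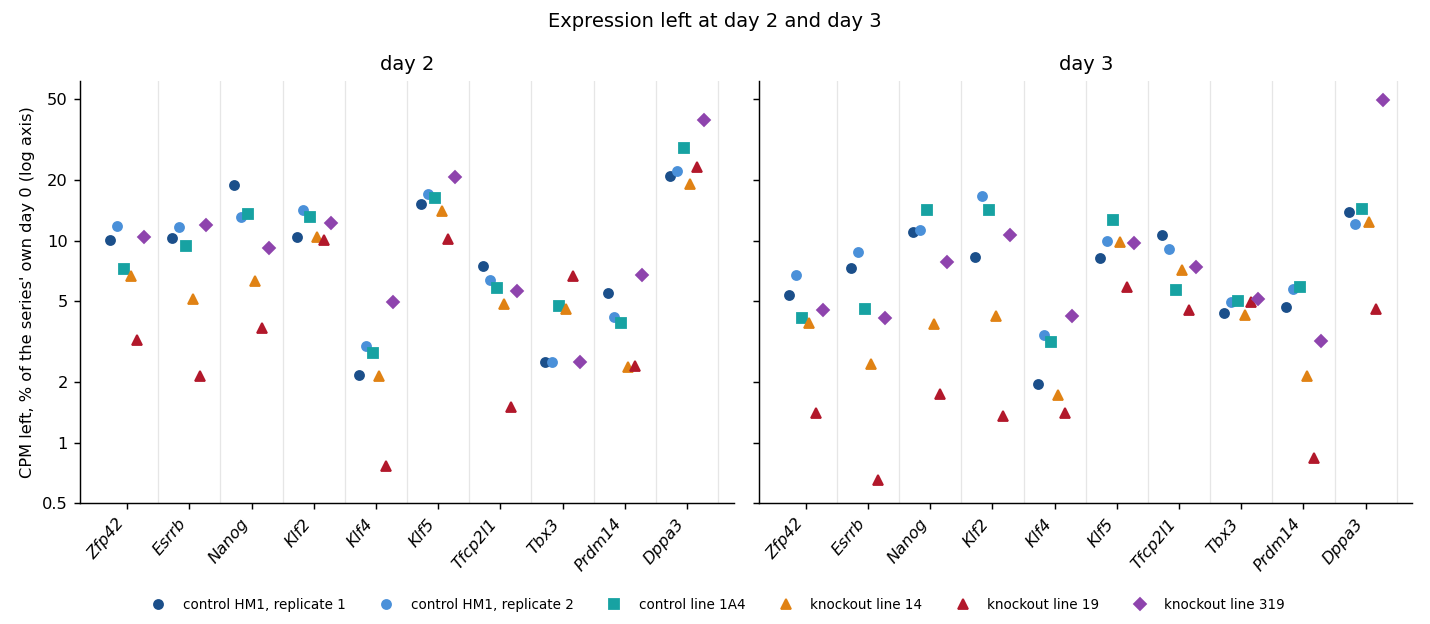
Share of each series' own day 0 CPM that was left at day 2 (left) and day 3 (right), in percent on a log axis, 1 symbol per series for each of the 10 factors. At day 2 Klf4 is the lowest factor in 4 of 6 series and Tbx3 in HM1 replicate 2 and line 319, Dppa3 is the highest in each series, line 19 (red triangles) is the lowest symbol for 7 of 10 factors at day 2 and 9 of 10 at day 3, and line 319 (purple) lies near or above the controls for most.

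Between day 2 and day 3, in retinoic acid, the controls showed no called change among the members. The edgeR test called 0 of 10 members in controls (1 at an unadjusted p below 0.05, 0 by DESeq2), where 8.92% of all genes were called lower. It called 2 of 10 in knockout lines, Klf2 and Klf5, both lower, where 16% of all genes were called lower. With the 6 series as a block the counts were 1 in controls, Klf5, and 4 in knockout lines, which added Esrrb (log2 -1.399, adjusted p = 0.0185) and Zfp42. In that fit 21.8% of all genes in controls and 32.6% in knockout lines were called in either direction. The genotype difference in this step was called in 0 of 10 members (1 at an unadjusted p below 0.05, 0 by DESeq2), against 0.0383% of all genes. The member count in the knockout lines was 0 without control replicate 1, control replicate 2 (both HM1) or knockout replicate 1 (line 14). There 23.4%, 24.3% and 23.7% of all genes were called in either direction. In the controls the member count was 3 without knockout replicate 2 (line 19) and 2 without knockout replicate 3 (line 319), where 33.9% and 29.2% of all genes were called in either direction.

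Loss of Nup133 did not give a called difference in the fall of any member, although most fitted falls were larger in the knockout lines. For the fall to day 2 the difference was called in 0 of 10 members by edgeR (0 at an unadjusted p below 0.05, 0 by DESeq2), against 0.0219% of all genes, and 8 of 10 fitted differences were below 0. For the fall to day 3 it was called in 0 of 10 (1 at an unadjusted p below 0.05, 0 by DESeq2), against 0.427% of all genes, with 8 of 10 below 0. The member medians were -0.20 and -0.57, against 0.03 and 0.02 over all genes. Over the members, the lowest and highest bounds of the 95% intervals were -2.72 and 1.44 for the fall to day 2. For the fall to day 3 they were -3.31 and 1.47. These outer bounds belong to different members. To day 3 the interval of Esrrb ran from -3.31 to 0.05, that of Klf2 from -2.55 to -0.24 and that of Dppa3 from -0.94 to 1.47. The intervals were wide, so an uncalled difference does not show that the genotypes fell alike. Without knockout replicate 3 (line 319) this difference was called in 2.15% of all genes in place of 0.427%, and in 3 members, Nanog (log2 -2.08, adjusted p = 0.0392), Klf2 (log2 -2.21, adjusted p = 0.0275) and Prdm14 (log2 -1.76, adjusted p = 0.0319).

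**Figure D3:**
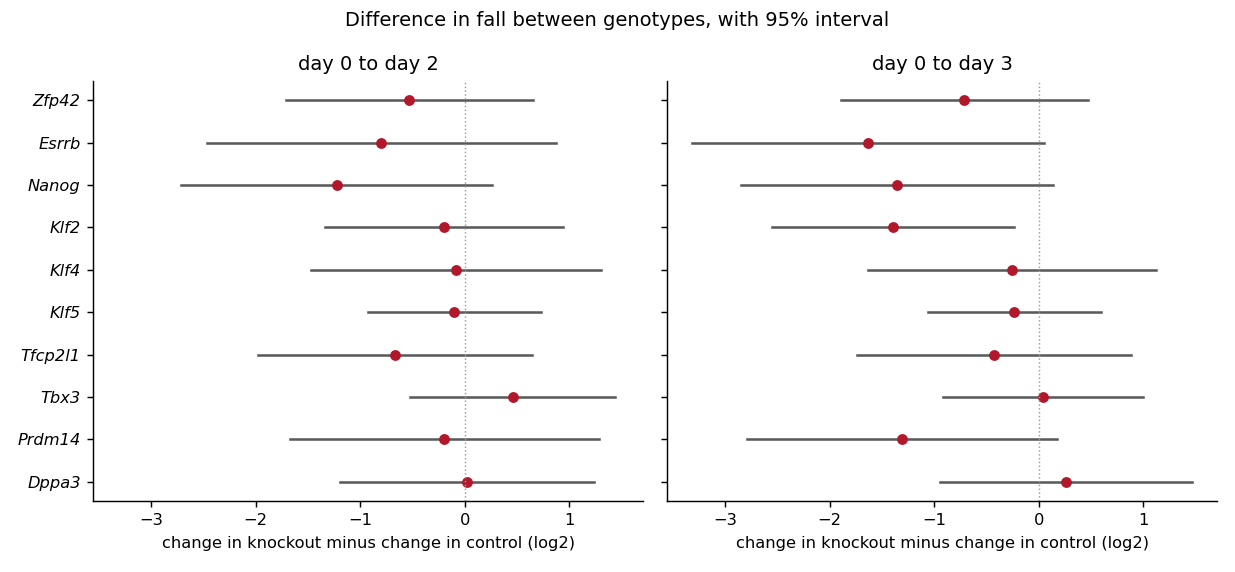
Difference in the fitted log2 change between knockout lines and controls for the fall to day 2 (left) and to day 3 (right), with the edgeR 95% interval as a bar, values below 0 meaning a larger fall in the knockout lines. Klf2 has an interval wholly below 0 at day 3 (unadjusted), 8 of 10 points lie below 0 in each panel, and no member passed the adjusted threshold.

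As levels, the genotypes were compared at each day. At day 0 edgeR called 0 of 10 members (1 at an unadjusted p below 0.05, and 1 by DESeq2, Dppa3), where 0.854% of all genes were called. In CPM the genotypes did not overlap for 3 of 10 members, Esrrb and Klf4, which were higher, and Dppa3, which was lower, where 17.8% of all genes did not overlap. At day 2 it called 0 of 10 (3 at an unadjusted p below 0.05, and 1 by DESeq2, Dppa3), where 1.6% of all genes were called, and 1 of 10, Dppa3, did not overlap, where 21.7% of all genes did not. At day 3 it called 1 of 10, Klf2 (4 at an unadjusted p below 0.05, and 2 by DESeq2), where 5.2% of all genes were called and 2.45% were called lower. In CPM 3 of 10, Zfp42, Klf2 and Dppa3, did not overlap at day 3, a share no larger than the 35.2% of all genes that did not. The median log2 difference of the members went from 0.16 on day 0 through -0.36 on day 2 to -0.82 on day 3, while over all genes it was 0.01, 0.02 and 0.02. Nanog gave log2 -1.23 ± 0.51 (SE), adjusted p = 0.171 and Esrrb log2 -1.28 ± 0.58 (SE), adjusted p = 0.206 at day 3. Without knockout replicate 3 (line 319) more genes were called in general, 7.35% of all genes at day 2 and 10.8% at day 3. The day 3 count of members was then 5, with Nanog (log2 -2.22, adjusted p = 0.00411), Esrrb (log2 -1.99, adjusted p = 0.0202), Prdm14 (log2 -1.75, adjusted p = 0.00523) and Dppa3 (log2 -1.76, adjusted p = 0.0101) beside Klf2, and the day 2 count was 3, Nanog, Tfcp2l1 and Dppa3.

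The knockout lines were far from uniform. The SD over the 3 series of the log2 change from day 0 was larger in the knockout lines than in the controls for 9 of 10 members at day 2 and 9 of 10 at day 3, with medians of 0.78 against 0.24 and 0.95 against 0.33. These spreads are unlike in kind, because the controls include replicates of the same line, HM1, whereas each knockout series is a separate line. The share of all genes with a larger SD in the knockout lines was not computed. Line 19 had the lowest share left in 7 of 10 members at day 2 and 9 of 10 at day 3. Its median share left was 3.45% at day 2 and 1.57% at day 3, followed by line 14 with 5.73% and 4.09%. Line 319 left 9.79% and 6.25%, within the range of the controls, which left 8.29% to 11.8% at day 2 and 5.79% to 8.89% at day 3. The same line 19 sample at day 2 was the shallowest of all. Without that 1 sample the calls shifted in several comparisons. In the step to day 3 in knockout lines Klf2 no longer passed (log2 -1.11, adjusted p = 0.0663), whereas Zfp42 (log2 -1.37, adjusted p = 0.0107) and Esrrb (log2 -1.81, adjusted p = 0.0242) did. Klf5 then passed in the step to day 3 in controls (log2 -0.698, adjusted p = 0.0467) and Dppa3 between genotypes at day 3 (log2 -1.31, adjusted p = 0.0447). The log2 values of these 2 were close to those of the main fit, -0.696 and -1.302. In this setting more genes were called between genotypes at day 3, 15.9% of all genes against 5.2% in the main fit. In the step to day 3 it called 32.4% of all genes in controls and 32% in knockout lines, in either direction.

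Set against the controls of its own background, each knockout line gives 1 difference per member with no replicate of its own. Against the mean of the HM1 replicates, line 19 was lower at day 3 in 9 of 10 members, with a median log2 difference of -1.82, and line 14 in 9 of 10, with a median of -0.85. The medians over all genes were -0.008 and 0.011. Line 319 was lower than line 1A4 in 3 of 10, with a median of 0.28, against -0.001 over all genes. It was already higher than line 1A4 at day 0 in 7 of 10, with a median of 0.695. From day 0 to day 3 line 319 fell more than line 1A4 in 6 members and less in 4. The median difference in that change was -0.095, against -0.009 over all genes, and 50.9% of all genes were below 0. In Esrrb the day 3 differences were -1.46 (line 14), -3.24 (line 19) and 0.498 (line 319). In Nanog they were -1.59, -2.84 and 0.101, and in Klf2 -1.57, -2.96 and -0.55. Zfp42, Klf2 and Dppa3 were the members below their own controls in all 3 lines at day 3. In level, line 319 had the opposite sign to lines 14 and 19 in 6 members at day 2 and in 5 at day 3. In the change from day 0 it had the opposite sign in 6 members to day 2 and in 3 to day 3.

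**Figure D4:**
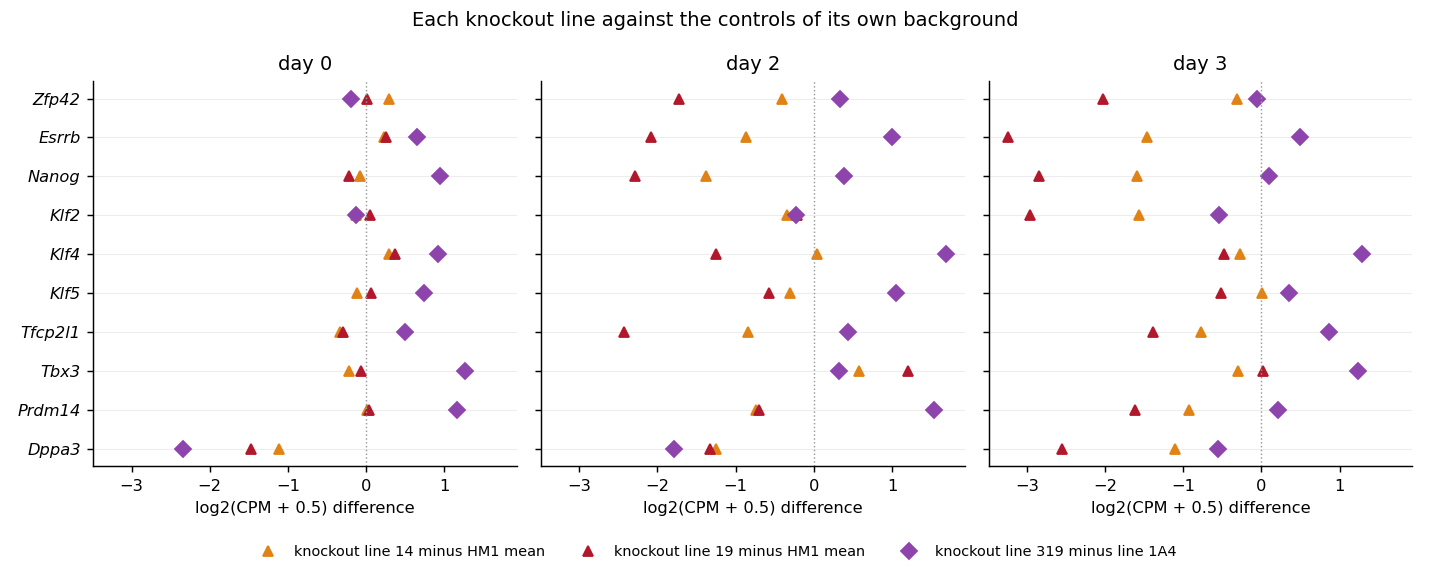
Difference in log2(CPM + 0.5) between each knockout line and the controls of its own background, lines 14 and 19 against the mean of the HM1 replicates and line 319 against line 1A4, at days 0, 2 and 3. Lines 14 and 19 (triangles) lie left of 0 for most factors from day 2 on. Line 319 (diamonds) lies right of 0 for 7 of 10 factors already at day 0, 8 of 10 at day 2 and 7 of 10 at day 3.

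Whether the genotype effect differs between the backgrounds was tested with an edgeR fit that gives each background its own effect, which leaves 6 residual degrees of freedom and 1 sample a side in the blastocyst-derived lines. No member passed the threshold, and with so few samples this fit cannot show that the effect is alike in the backgrounds. At day 2 the fitted difference, blastocyst-derived minus HM1-derived, was largest in Prdm14, at log2 2.96 ± 0.56 (SE). It was 2.35 ± 0.88 in Esrrb, 2.22 ± 0.65 in Klf4 and 2.16 ± 0.68 in Nanog. Only Tbx3 (-0.65 ± 0.49) and Dppa3 (-0.58 ± 0.69) were below 0 at that day. At day 3 the fitted difference was 2.64 ± 0.89 in Esrrb, 2.23 ± 0.68 in Nanog and 1.97 ± 0.56 in Prdm14. The lowest at day 3 was 0.62 ± 0.39, in Klf5. For the genotype difference in the fall to day 3 the values ran from -0.15 ± 0.54 in Klf5 to 2.27 ± 0.95 in Dppa3. Over all genes 177 were called at day 0, 100 at day 2 and 4 at day 3. Background, sex chromosomes, the extra chromosomes of line 319 and the kind of Nup133 allele cannot be told apart in this design.

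Per kilobase of transcript, the scale on which members can be compared with each other, Zfp42 led in day 0 controls with 346 ± 44.9 CPM per kb (mean ± SD, n = 3), followed by Nanog with 272 ± 63.3, Klf2 with 176 ± 42.9 and Esrrb with 163 ± 6.15. The ranges of neighbours overlapped among these 4. Klf4 (98.1 ± 30.4), Dppa3 (74.4 ± 17.1) and Tfcp2l1 (64.0 ± 10.4) formed a middle group whose neighbours also overlapped, and it was apart from Esrrb above and from Klf5 (30.2 ± 1.715) below. Tbx3 (25.8 ± 3.89) and Prdm14 (13.55 ± 3.875) closed the order. At day 3 Nanog led in controls with 32.5 ± 5.04 CPM per kb, apart from Klf2 with 22.1 ± 6.01, and Prdm14 was last with 0.732 ± 0.221. In day 3 knockout lines the neighbours from Nanog (15.9 ± 14.5) down to Tbx3 (1.84 ± 1.405) all overlapped.

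The genes around the network had their own time courses. Of 12 other naive-state genes, 9 fell by day 2 in each genotype and 11 by day 3, and none was called between genotypes at any day. Nr5a2, a nuclear receptor that activates Pou5f1, fell by log2 -3.71 ± 0.398 (SE), adjusted p = 8.69e-06 by day 2 in controls and log2 -4.13 ± 0.41 (SE), adjusted p = 3.85e-06 in knockout lines. The smallest called falls in controls by day 2 were those of Dppa2, a nuclear protein that keeps certain promoters bivalent (log2 -1.64 ± 0.39 SE, adjusted p = 0.00451), and Dnmt3l, a cofactor of the de novo DNA methyltransferases (log2 -1.45 ± 0.33 SE, adjusted p = 0.00296). Tdh, the threonine dehydrogenase of embryonic stem cells, had the largest called fall of the list by day 3 (log2 -5.59 ± 0.35 SE, adjusted p = 2.76e-08 in controls and log2 -6.55 ± 0.36 (SE), adjusted p = 6.23e-09 in knockout lines). Tet2, a 5-methylcytosine oxidase, was lower at day 3 than at day 0 in controls (log2 -2.09 ± 0.35 SE, adjusted p = 0.000133) although it rose from day 2 to day 3 (log2 1.27 ± 0.34 SE, adjusted p = 0.0139).

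Of 8 genes of the LIF and STAT3 pathway, 6 fell by day 2 in each genotype. Socs3, the feedback inhibitor that STAT3 induces, fell by log2 -2.86 ± 0.26 (SE), adjusted p = 2.12e-06 in controls and log2 -3.37 ± 0.27 (SE), adjusted p = 5.63e-07 in knockout lines by day 2. From day 2 to day 3 Socs3 rose in controls (log2 1.23 ± 0.25 SE, adjusted p = 0.0022) and gave log2 -0.04 ± 0.25 (SE), adjusted p = 0.927 in knockout lines. The difference between these steps, log2 -1.26 ± 0.35 (SE), adjusted p = 0.355, did not pass the threshold. Socs3 was lower in knockout lines at day 3 (log2 -1.56 ± 0.25 SE, adjusted p = 0.00425), as was the kinase gene Pim3 (log2 -0.997 ± 0.198 SE, adjusted p = 0.0118), 2 of the 8. The difference in the change from day 0 to day 3 was called for the same 2 genes, Socs3 (log2 -1.77 ± 0.34 SE, adjusted p = 0.0333) and Pim3 (log2 -1.39 ± 0.28 SE, adjusted p = 0.0403). Stat3 itself gave log2 -0.503 ± 0.21 (SE), adjusted p = 0.165 at day 3 and the receptor Lifr log2 -0.34 ± 0.36 (SE), adjusted p = 0.64, neither past the threshold.

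The 7 general pluripotency factors were followed beside the naive genes. By day 2, 4 of 7 had fallen in each genotype, and by day 3 all 7. Pou5f1, the octamer-binding factor of the core network, singled out after its values were seen, gave log2 -0.39 ± 0.25 (SE), adjusted p = 0.251 by day 2 and log2 -2.62 ± 0.27 (SE), adjusted p = 1.63e-06 by day 3 in controls. Sox2 (log2 0.83 ± 0.16 SE, adjusted p = 0.0198) and the forkhead factor gene Foxd3 (log2 1.63 ± 0.34 SE, adjusted p = 0.0258) were higher in knockout lines at day 2, and the Nodal co-receptor Tdgf1 was lower at day 3 (log2 -2.55 ± 0.68 SE, adjusted p = 0.0413). All 7 formative and primed genes rose by day 2 and fell from day 2 to day 3 in each genotype, among them Dnmt3b, a de novo DNA methyltransferase (log2 2.99 ± 0.27 SE, adjusted p = 2.16e-06 and log2 -4.195 ± 0.29 (SE), adjusted p = 1.05e-07 in controls), and none was called between genotypes at any day. Among the regulators of naive exit Rbpj, the Notch effector, fell by log2 -1.09 ± 0.27 (SE), adjusted p = 0.00636 by day 2 in controls, and the ERK gene Mapk3 rose by log2 0.79 ± 0.24 (SE), adjusted p = 0.0162. Of 3 partners of members, Ncoa3, a coactivator of Esrrb, and Cbfa2t2, the corepressor that binds Prdm14, fell by day 2 in both genotypes, and Uhrf1, restrained by Dppa3, gave log2 -0.25 ± 0.13 (SE), adjusted p = 0.146 in controls.

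Marker lists of other cell types were summed over the same days. Neural progenitor markers summed to 58.3 to 160 CPM at day 0, 199 to 254 CPM at day 2 and 267 to 327 CPM at day 3 in controls. In knockout lines neural progenitor markers summed to 45.6 to 74.3, 79.5 to 164 and 237 to 949 CPM. At day 3 lines 14 and 19 held 628 and 949 CPM, above every control, and line 319 held 237 CPM, below every control. Primitive endoderm markers summed to 20.1 to 26.2 CPM at day 0 and 51.3 to 59.7 CPM at day 3 in controls, and to 12.0 to 17.5 and 51.6 to 70.1 CPM in knockout lines. Trophoblast markers stayed at or below 24.9 CPM in all samples, and two-cell-like markers at day 3 summed to 0.443 to 1.20 CPM in controls and 3.37 to 15.6 CPM in knockout lines. Their part in the member levels was not tested either.

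By pattern over the 18 samples, genes most like the mean profile of the members, among 9790 candidates with at least 10 CPM, included Manba (r = 0.987), Cobl (0.985), Nr5a2 (0.984) and Cd9 (0.982). These correlations share libraries and the common effect of day and are descriptions only. The nearest gene of single members was Mov10 for both Nanog (0.988) and Esrrb (0.983), Smad7 for Klf5 (0.988), A2m for Klf4 (0.987), Notum for Prdm14 (0.987), Cobl for Zfp42 (0.985), Tnip1 for Dppa3 (0.974), Mllt6 for Tfcp2l1 (0.973), Fbxo15 for Klf2 (0.970) and Parvb for Tbx3 (0.965).

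Promoter windows of 6 members, Zfp42, Esrrb, Nanog, Klf2, Klf4 and Tfcp2l1, were found in the RefSeq table, and those of Klf5, Tbx3, Prdm14 and Dppa3 were not used here. Both strands of the 250 bases were searched. The octamer core TTTGCAT was in 2 of 6 member windows, Zfp42 and Nanog, and in 4.12% of 32851 windows of the same length. The Sox-type ACAATG was in 1 of 6, against 10.7%, the Klf-type GGGNGTGG in 3 of 6, against 15.9%, and TATAA in 3 of 6, against 22.8%. A GC box, GGGCGGG, was in 3 of 6, against 23.4%. The Esrrb-type AAGGTCA and the STAT-type TTCNNNGAA were in 0 of 6, against 4.08% and 7.02%, which says only that these letters are not in these windows. Zfp42 and Nanog, the 2 members with an octamer core, left 9.69% and 15.1% of their day 0 level at day 2 in controls. The 4 searched members without one, Klf4, Tfcp2l1, Esrrb and Klf2, left 2.65%, 6.58%, 10.5% and 12.55%. With 6 windows, and none for Klf5, Tbx3, Prdm14 and Dppa3, these values cannot show whether the motif goes with the share left.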

How the data were processed

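Gene expression was measured by poly(A) RNA sequencing (TruSeq Stranded mRNA) in 18 samples, each sequenced as 4 technical libraries. The deposited values are raw read counts per Ensembl transcript; STAR 2.4.0k, HTSeq, SAMtools, bcl2fastq 2.17.1.14 and mm10 are named per the submitters' processing notes, and the annotation release and strand setting are not given in the sources used here. Technical libraries (chi-square per degree of freedom 1.01 to 1.03) were summed. Of 110379 transcripts, 108214 matched GENCODE M21, and the unmatched held 1.44% to 2.46% of counts and were left out. Each of 45321 genes was represented by its transcript with the most counts. edgeR 4.0.16 (R 4.3.3, TMM, filterByExpr, robust quasi-likelihood fit, 6 groups plus background, 11 residual degrees of freedom) tested 18273 genes, with Benjamini-Hochberg adjustment and a threshold of 0.05, and was tested on simulated data. DESeq2 1.42.0, other filters, designs and left-out samples were alternatives. Samples of 1 line and replicate across days form a series and are paired by origin (correlation of deviations from group means -0.13 to 0.48). All members are named. Of the other lists (naive-state, LIF and STAT3, general pluripotency, formative, exit regulators, partners, cell type markers), all called genes were to be named where 5 or fewer were called, otherwise the 2 highest and 2 lowest, of which examples are given. Genes of similar pattern are taken from the 5 with the highest correlation. Some items of these lists are not reported here. Members and lists were chosen with earlier results of these data known. Promoter windows are RefSeq's. The fit of the genotype effect per background was chosen after seeing the data.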

Additional observations from a re-analysis of the deposited data

How the results depend on the processing

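All 10 members were called lower from day 0 to day 2 and from day 0 to day 3 in both genotypes under every alternative run. With DESeq2 the members called between genotypes were 1 at day 0, 1 at day 2 and 2 at day 3, and 4 in the step from day 2 to day 3 in knockout lines. In these 4 comparisons DESeq2 called 3.1%, 8.13%, 11.3% and 39.4% of all genes. The all-gene shares in this section are for either direction. Between genotypes at day 3 the edgeR member count was 0 with no low-count filter and 0 with all transcripts added up. It was 5 in the HM1-derived lines alone and 2 without line 19 at day 2. The shares of all genes in these settings were 2.66%, 4.03%, 6.06% and 15.9%. In the step from day 2 to day 3 the member count was 1 in controls and 4 in knockout lines with the replicate block of the 6 series, which changed no other member call. With that block 21.8% and 32.6% of all genes were called in this step. For the same step in controls the member count was 1 in the HM1-derived lines alone and 1 without line 19 at day 2, against 18.8% and 32.4% of all genes. In knockout lines it was 1 with no filter, 1 without the background term and 3 without line 19 at day 2. There 17%, 30.9% and 32% of all genes were called. Leaving out 1 replicate gave 0 to 1 at day 0, 0 to 3 at day 2, 0 to 5 at day 3, 0 to 3 in the step to day 3 in controls, 0 to 3 in knockout lines, and 0 to 3 for the difference in fall to day 3. The cause was not tested. Depth was lowest in line 19 at day 2 (16466724 counts), and the lowest member count was 10, for Prdm14 in line 19 at day 3. Uncalled log2 differences changed sign in some settings, and none of these was past the threshold there. The fit of the HM1-derived lines alone gave log2 values of the other sign, Nanog at -0.149, Klf5 at -0.011 and Tbx3 at -0.142 between genotypes at day 0. Between genotypes at day 2 it gave Klf4 at -0.45, Klf5 at -0.444 and Prdm14 at -0.998. Between genotypes at day 3 it gave Klf4 at -0.442 and Tbx3 at -0.186. For the difference in change from day 0 to day 2 it gave Dppa3 at -0.061, and from day 2 to day 3 in controls it gave Klf2 at -0.007. From day 2 to day 3 in knockout lines it gave Klf4 at 0.054 and Tbx3 at -0.266. For the difference in change from day 2 to day 3 it gave Klf4 at 0.009, Klf5 at 0.185 and Dppa3 at -0.435. For the difference in change from day 0 to day 3 it gave Tbx3 at -0.045 and Dppa3 at -0.497. A fit without the background term gave Tfcp2l1 at 0.032 between genotypes at day 0. Between genotypes at day 3 it gave Klf5 at 0.019. Without line 19 at day 2 the values of the other sign were Esrrb at 0.014 between genotypes at day 2. For the difference in change from day 0 to day 2 it gave Klf4 at 0.332, Klf5 at 0.101 and Prdm14 at 0.021. For the difference in change from day 2 to day 3 it gave Tfcp2l1 at -0.164. The next values are the lowest and highest with 1 replicate left out. Between genotypes at day 0 the log2 value ran for Zfp42 from -0.111 to 0.101, Esrrb from -0.043 to 0.494, Nanog from -0.384 to 0.413, Klf2 from -0.271 to 0.095, Klf5 from -0.137 to 0.343, Tfcp2l1 from -0.45 to 0.154, Tbx3 from -0.056 to 0.558 and Prdm14 from -0.203 to 0.562. Between genotypes at day 2 the log2 value ran for Esrrb from -1.382 to 0.101, Klf4 from -0.436 to 0.852, Klf5 from -0.397 to 0.329 and Prdm14 from -0.922 to 0.565. Between genotypes at day 3 the log2 value ran for Klf4 from -0.476 to 0.57, Klf5 from -0.36 to 0.167 and Tbx3 from -0.1 to 0.631. In the difference between genotypes in change from day 0 to day 2 the log2 value ran for Klf4 from -0.806 to 0.393, Klf5 from -0.43 to 0.12, Prdm14 from -0.93 to 0.139 and Dppa3 from -0.191 to 0.243. Within controls, from day 2 to day 3 the log2 value ran for Klf2 from -0.105 to 0.182 and Klf4 from -0.018 to 0.178. Within knockout lines, from day 2 to day 3 the log2 value ran for Klf4 from -0.262 to 0.049 and Tbx3 from -0.258 to 0.542. In the difference between genotypes in change from day 2 to day 3 the log2 value ran for Klf5 from -0.289 to 0.036 and Dppa3 from -0.328 to 0.686. In the difference between genotypes in change from day 0 to day 3 the log2 value ran for Klf4 from -0.847 to 0.062, Tbx3 from -0.056 to 0.099 and Dppa3 from -0.519 to 0.768.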
